A study of Mus musculus with 6 samples.

Results

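Transmitter release in the mouse forebrain was followed through 9 genes of the machinery that readies synaptic vesicles for fusion and sets how they answer calcium, namely Doc2a, Doc2b, Unc13a, Unc13b, Unc13c, Rph3a, Cplx1, Cplx2 and Cplx3. They were chosen by gene symbol from the 23282 entries of the count tables, with the difference between the labelled groups in these same libraries already known. Doc2b in particular had been singled out on that difference. The values that compare the groups are therefore a description of these genes and no test of them. The libraries came from adult male C57BL/6J mice, a common inbred strain. For 3 libraries labelled as water avoidance stress (WAS), the animal stood for 1 h on a platform surrounded by water, and for 3 labelled as control it spent the same time on a platform in a dry container. The libraries are labelled as biological replicates, were made from a forebrain hemisphere without olfactory bulb and cerebellum, and read only the 3′ ends of polyadenylated transcripts (QuantSeq). The total counts were 9248520 to 10067053 in the libraries labelled WAS and 9977945 to 10502029 in those labelled control. No genotype or drug differed between the groups.

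The direction of every difference rests on the sample labels. For each library labelled WAS the heading of the count column begins with WC, for each control library it begins with WS, and the sources used here do not define these letters. If the headings and not the labels named the treatment, each direction given here would turn around. The libraries also differed in their levels of markers of brain regions. Levels are given as CPM, the counts scaled to a common library total. Summed CPM of 7 markers of striatal projection neurons, of which 6 were tested and Drd2 was listed at 0 or 1 count, were 129.2, 1553 and 290.1 in WAS replicates 1, 2 and 3 and 775.2 to 1093 in the control libraries. Summed markers of thalamic neurons were 534.5, 117.5 and 411.1 CPM in WAS replicates 1, 2 and 3 against 86.9 to 118.6 CPM, with 4 of 5 markers tested and 5 of 5 higher on average in the libraries labelled WAS. WAS replicates 1 and 3 thus stood apart from the other 4 libraries. Choroid plexus markers were low in WAS replicate 1 (41.6 CPM) and control replicate 2 (15.8 CPM) and lay between 914.1 and 1234 CPM elsewhere. Hippocampal markers summed to 56.7 to 138.6 CPM in the libraries labelled WAS and 31.3 to 61.8 CPM in those labelled control, and the sums for GABAergic neurons, astrocytes, oligodendrocytes, microglia, endothelium and Purkinje cells overlapped between the groups as well. Neurons were present in each library, with 5 pan-neuronal genes that summed to between 2740 and 2904 CPM. Of the cerebellum, which had been removed, the granule cell gene Gabra6 had 0 counts in 5 libraries and 1 count in WAS replicate 3, while 4 markers of Purkinje cells, some of which other brain regions also express, summed to between 44.8 and 51.2 CPM. A count near 0 is weak evidence of absence in these tables, as the value of Drd2 beside the other striatal markers shows. In bulk tissue, fewer cells of a type and less RNA per cell cannot be told apart.

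These genes act at successive steps of release. Proteins of the Unc13 family, called Munc13, open syntaxin and prime docked vesicles for fusion. Complexins then bind the assembled SNARE complex and both hold back unprompted fusion and speed the synchronous kind. The Doc2 proteins are soluble calcium sensors with paired C2 domains that serve spontaneous and asynchronous release, and rabphilin, the product of Rph3a, is a C2 domain protein that binds the vesicle GTPase Rab3. In GENCODE M21, on the mm10 build that the submitters' processing notes name, Doc2b lies at chr11:75768966-75796049 on the minus strand and Doc2a at chr7:126847416-126852705 on the plus strand. The Unc13 genes lie at chr8:71624417-71671757 (Unc13a, minus strand), chr4:43058953-43264871 (Unc13b, plus strand) and chr9:73479422-73968966 (Unc13c, minus strand). Rph3a at chr5:120940499-121010092 and Cplx1 at chr5:108518554-108550024 share a chromosome and the minus strand. Cplx2 lies at chr13:54371349-54383917 on the plus strand and Cplx3 at chr9:57599992-57606281 on the minus strand. The last 500 bases of the longest coding transcript, where 3′ reads are expected, shared a 50-base stretch with other genes' transcripts in 0 of the 9 genes, so that paralogs are kept apart by sequence there. Over the ends of Doc2a and Unc13a lie Ino80e and Colgalt1, respectively, on the opposite strand. Whether the counting used strand is not given in the sources used here, and without strand such reads cannot be told apart.

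Promoters are shown for Unc13a and Unc13c, paralogs of the priming factor with log2 fold changes of opposite sign, of which Unc13a overlapped between the groups. The RefSeq table (GRCm38.p6) held a promoter for 7 of the 9 genes, each from 250 bases before to 50 bases after a start site. Capitals mark TGACG or its reverse complement CGTCA, the half-site of the cyclic AMP response element, searched on both strands.
Unc13a, chr8:71671708-71672007, minus strand: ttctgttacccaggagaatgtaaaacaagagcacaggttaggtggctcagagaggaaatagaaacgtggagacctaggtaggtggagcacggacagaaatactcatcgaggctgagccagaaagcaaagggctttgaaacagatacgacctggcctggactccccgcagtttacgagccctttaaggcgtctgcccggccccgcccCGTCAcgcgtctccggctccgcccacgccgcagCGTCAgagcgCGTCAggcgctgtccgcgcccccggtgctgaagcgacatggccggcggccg
Unc13c, chr9:73968988-73969287, minus strand: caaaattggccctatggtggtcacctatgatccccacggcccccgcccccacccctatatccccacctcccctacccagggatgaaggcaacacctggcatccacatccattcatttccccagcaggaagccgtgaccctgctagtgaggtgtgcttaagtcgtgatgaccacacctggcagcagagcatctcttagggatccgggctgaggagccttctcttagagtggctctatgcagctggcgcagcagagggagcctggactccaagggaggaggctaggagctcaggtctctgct
The Unc13a window held 3 such half-sites, all as CGTCA, and the Unc13c window held 0. Of all 32851 promoters in the table, 20.8% held at least 1. The half-site AGAACA of the glucocorticoid response element, present in 19.0% of all promoters, was in neither window, nor was the palindrome TGACGTCA, which contains the cyclic AMP half-site on both strands and was present in 1.79% of all promoters. The Unc13a window had a GC content of 61.3% with 27 CpG dinucleotides, and the Unc13c window one of 59.3% with 6. The median GC content of all promoters was 52.7%. Of the other genes with a promoter, Cplx1 held 2 cyclic AMP half-sites, and Unc13b, Rph3a, Cplx2 and Cplx3 held 0. A window of Rph3a held 1 glucocorticoid half-site. The part of such half-sites in the fold changes was not tested.

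Doc2b and Unc13c were higher in each of the 3 libraries labelled WAS than in any library labelled control, and the other 7 genes overlapped between the groups. In the fit across all genes, 3 of the 9 log2 ratios (log2 fold changes) of WAS over control were above 0 and 6 below, with a median of -0.08, where the median of all 15239 genes tested was 0.00088. Groups that did not overlap were seen for 2 of the 9 genes and for 12.2% of all genes tested. Doc2b alone met the study's fold change of 1.5 with an unadjusted p under 0.05 (quasi-likelihood test of edgeR), 1 of 9 genes beside 2.49% of all genes tested. At an adjusted p of 0.05 (Benjamini-Hochberg), 0 of the 9 genes and 0% of all genes passed, and at an unadjusted p under 0.05, 4 of the 9 and 7.24% of all genes. With the replicate number as a block, 1 of the 9 genes, Unc13c, passed the adjusted threshold, beside 0.322% of all genes tested. As the genes were chosen with this contrast known, nothing about them is read from these shares.

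**Figure D1:**
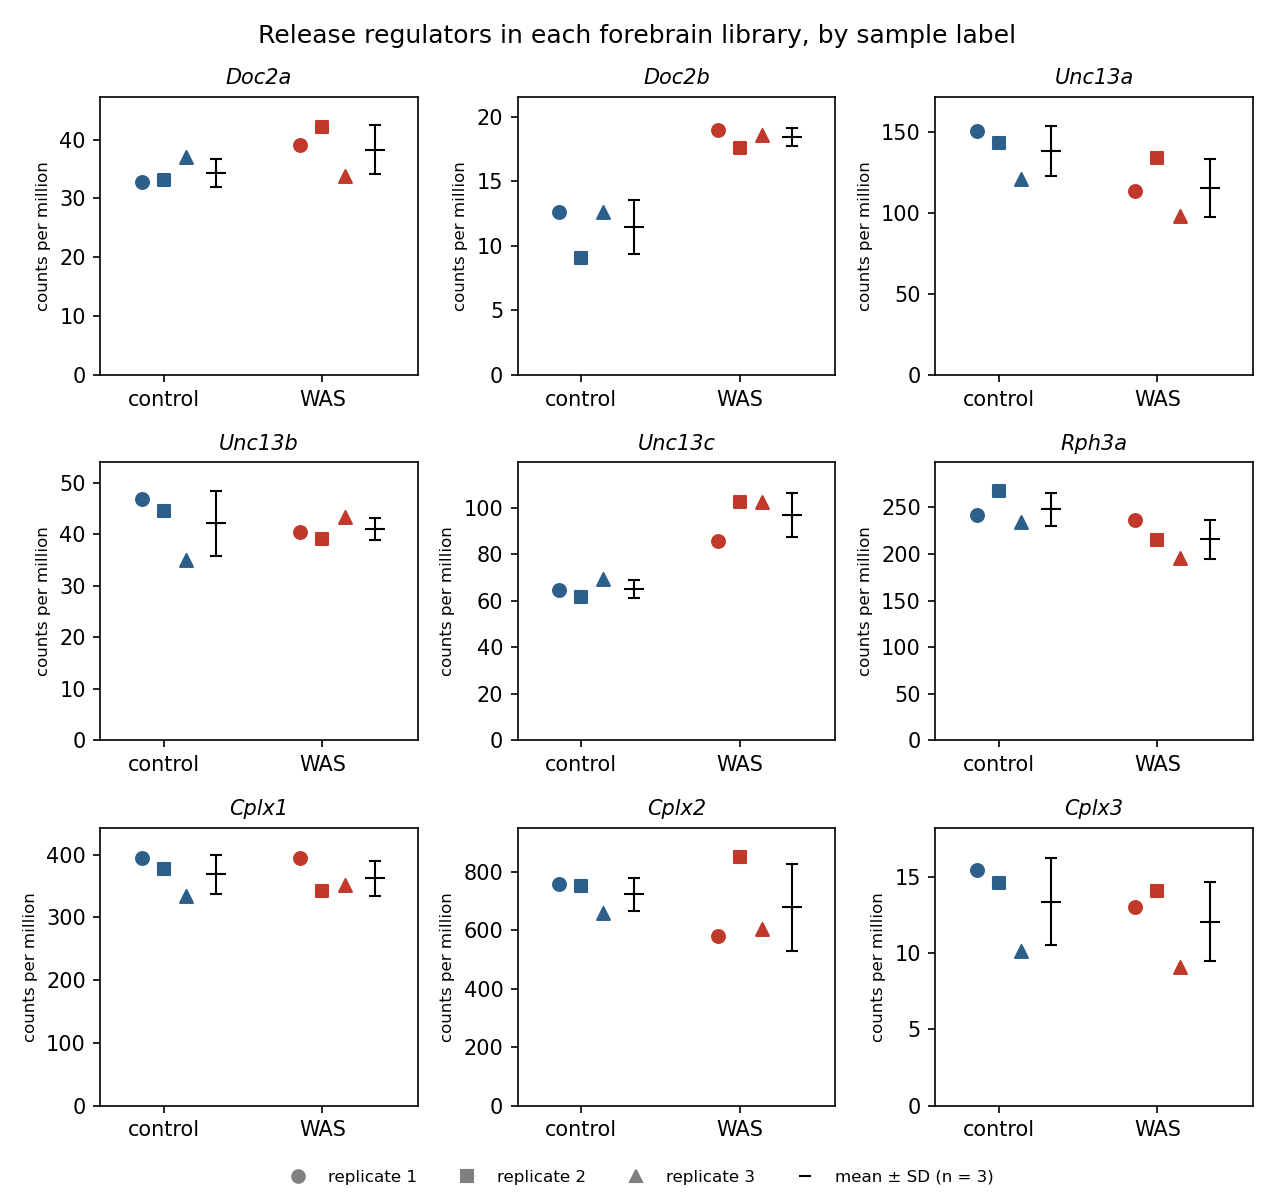
CPM, counts scaled to a common library total (vertical axes, from 0), for the 9 release regulators in the libraries labelled control (blue) and WAS (red), with 1 symbol per replicate number and black bars for the mean ± SD (n = 3). The 3 WAS points lie above the 3 control points for Doc2b and Unc13c, and the points of the other 7 genes overlap.

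By the sample labels, Doc2b was measured at 18.97, 17.62 and 18.63 CPM in WAS replicates 1, 2 and 3 and at 12.66, 9.06 and 12.63 CPM in the control replicates. If the column headings and not the labels named the treatment, Doc2b would be lower and not higher under stress, and which of them is right could not be settled from the files. The libraries labelled WAS were tightly grouped, and control replicate 2 was the lowest of the 6. The means were 18.4 ± 0.701 CPM (SD, n = 3) against 11.5 ± 2.07 CPM (SD, n = 3), and the log2 ratio was 0.65 ± 0.17 (SE). Without control replicate 2 it was 0.51, under a fold change of 1.5. The spread of the WAS libraries, a coefficient of variation of 3.81%, was smaller than the 8.20% that counting alone gives at the mean count of Doc2b, and that of the control libraries was 18.1%. With WAS replicate 2 alone against the controls, an analysis chosen after seeing the data in which the lone library is assumed to vary like the controls, the log2 ratio was 0.58 ± 0.24 (SE), and Doc2b no longer met the fold change of 1.5. The part of regional makeup in the Doc2b values was not tested. Control replicate 2 was also the library with the lowest choroid plexus sum, and the part of this in its low Doc2b was not tested.

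Doc2a, the paralog in the same family, was measured at 39.0, 42.1 and 33.8 CPM in WAS replicates 1, 2 and 3 against 32.85, 33.04 and 37.08 CPM in the control replicates. Its groups overlapped, with WAS replicate 3 below control replicate 3, and the log2 ratio was 0.12 ± 0.12 (SE). The ratio of Doc2b to Doc2a counts within a library, which no scaling between libraries can move, was 0.486, 0.419 and 0.552 in the libraries labelled WAS against 0.386, 0.274 and 0.341 in those labelled control. The ratios of the groups did not overlap, and their means stood at 1.46 for WAS over control, with 1.34 to 1.58 as the range when any 1 library was dropped. Relative to Doc2a, Doc2b was thus higher in each library labelled WAS. Reads of Ino80e from the opposite strand could enter the Doc2a side of this ratio.

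Unc13c encodes Munc13-3, an isoform best known from cerebellar granule cells, and Gabra6, a defining gene of those cells, was at or near 0 here. The libraries labelled WAS held 864, 947 and 1025 Unc13c counts, replicate 1 first, and the control libraries 680, 640 and 691, or 85.8, 102.4 and 102.7 CPM against 64.8, 61.7 and 69.3 CPM. The gap between the lowest WAS library and the highest control library was larger than the SD of either group. Group means were 97.0 ± 9.65 CPM (SD, n = 3) and 65.2 ± 3.82 CPM (SD, n = 3), with a log2 ratio of 0.53 ± 0.10 (SE). This is just under a fold change of 1.5, which Unc13c passed without WAS replicate 1 or control replicate 3. It also passed with WAS replicate 2 alone, at 0.61 ± 0.12 (SE). The lowest value of the 3 WAS libraries belonged to replicate 1, and the part of regional makeup in the Unc13c values was not tested. Cerebellar granule cell markers summed to 1.19 to 5.71 CPM in the libraries labelled WAS and 0.674 to 1.71 CPM in those labelled control, with 2 of 4 tested and 4 of 4 higher on average in the libraries labelled WAS. The greater part of that sum in WAS replicates 1 and 3 was Barhl1, with 39 and 45 counts against 2 in WAS replicate 2, while Cbln3 had 10, 9 and 9 counts against 8, 6 and 6.

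Unc13a encodes Munc13-1, the main priming factor of forebrain glutamatergic synapses. It was measured at 113.5, 134.1 and 98.3 CPM in the libraries labelled WAS and at 150.6, 143.0 and 121.3 CPM in those labelled control. Replicate 3 was the lowest in both groups, and WAS replicate 2 lay above control replicate 3, so that the groups overlapped. Between libraries of the same replicate number, Unc13a was lower in the library labelled WAS in 3 of 3 pairs, as were Rph3a and Cplx3. The share of all genes that does so was not counted, so nothing is read from these pairs. For Doc2b and Unc13c, whose groups did not overlap, any pairing gives the same direction. The log2 ratio of Unc13a was -0.30 ± 0.12 (SE), and with the replicate number as a block its SE was 0.089. With WAS replicate 2 alone against the controls the log2 ratio was -0.08 ± 0.12 (SE). Unc13b, which encodes Munc13-2, was at 40.3, 39.1 and 43.4 CPM against 46.9, 44.5 and 35.0 CPM, with a log2 ratio of -0.08 ± 0.12 (SE). The highest and the lowest Unc13b values were both in control libraries.
Within a library, Unc13c counts were 0.756, 0.764 and 1.05 times those of Unc13a in WAS replicates 1, 2 and 3 and 0.430, 0.431 and 0.571 times in the control replicates. These ratios did not overlap between the groups, and the ratio of the means was 1.79. The ratio of Unc13b to Unc13a overlapped, at 0.292 to 0.441 against 0.288 to 0.311. Because a 3′ read is taken once per transcript and transcript ends differ in how well they are captured, these ratios compare libraries and not the abundance of the paralogs.

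Rph3a was measured at 236.6, 215.0 and 195.1 CPM in WAS replicates 1, 2 and 3 against 241.8, 267.8 and 234.5 CPM in the control replicates. Among the libraries labelled WAS, replicate 1 alone reached into the control range, just above control replicate 3. Its means were 216 ± 20.8 CPM (SD, n = 3) and 248 ± 17.5 CPM (SD, n = 3), and the log2 ratio was -0.24 ± 0.09 (SE), with -0.31 to -0.17 as the range when any 1 library was dropped. Summed markers of cortical glutamatergic neurons, 6 of 6 tested, were also lower in each library labelled WAS, at 793.2 to 845.7 CPM against 852.3 to 1017 CPM. All 6 of these markers were lower on average and 2 of them did not overlap. Their part in the lower Rph3a and Unc13a of these libraries was not tested.

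The 3 complexins all overlapped between the groups. Cplx1 was at 393.9, 341.6 and 351.8 CPM in the libraries labelled WAS and at 394.1, 377.5 and 334.3 CPM in those labelled control, with a log2 ratio of -0.06 ± 0.09 (SE). The ranges of the groups for Cplx1 nearly coincided. Cplx2 was at 581.0, 849.2 and 605.1 CPM against 760.0, 752.6 and 658.0 CPM. WAS replicate 2 gave the highest Cplx2 value of the 6 libraries, and WAS replicates 1 and 3 the lowest values. The log2 ratio of Cplx2 was -0.13 ± 0.13 (SE) with all libraries and -0.32 without WAS replicate 2, and it turned to 0.19 ± 0.11 (SE) with WAS replicate 2 alone against the controls. The striatal marker sums were highest in WAS replicate 2 and lowest in WAS replicates 1 and 3, and their part in the Cplx2 values was not tested. The ratio of Cplx2 to Cplx1 counts ran from 1.93 to 1.99 in the control libraries, whereas it was 1.48, 2.49 and 1.72 in the libraries labelled WAS.
Cplx3, a lipid-anchored complexin of retinal ribbon synapses and of the deepest cortical neurons (layer 6b), had 131, 130 and 91 counts in WAS replicates 1, 2 and 3 against 162, 151 and 101 counts in the control replicates. Replicate 3 was the lowest in both groups, at 9.12 and 10.1 CPM, and the groups overlapped. The log2 ratio was -0.19 ± 0.21 (SE), and the coefficient of variation within groups of 21.6% and 21.3% was above the 8.85% that counting alone gives. The 5 other markers of layer 6b, all tested, summed to 281.1 to 437.2 CPM in the libraries labelled WAS against 240.9 to 280.7 CPM. These ranges nearly met. Of the markers, 4 were higher on average in the libraries labelled WAS, and 0 had groups that did not overlap. The sum was led by Nr4a2, which other cells also express, with 2901, 1338 and 2797 counts against 1521, 1592 and 1450. Cplx3 did not share the order of that sum.

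**Figure D2:**
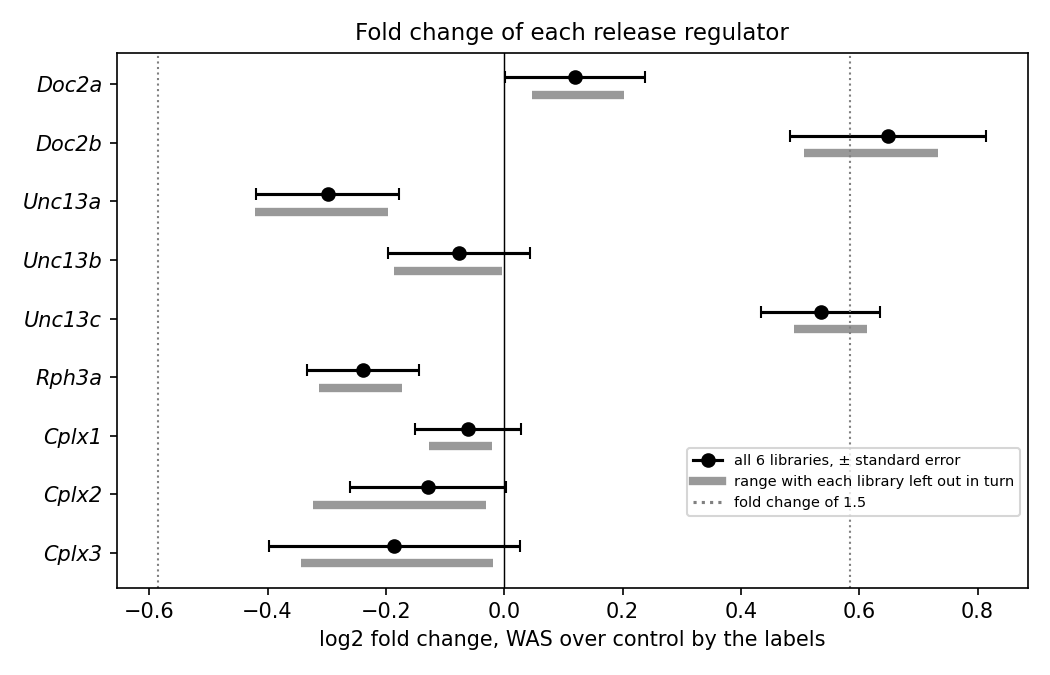
Log2 ratio of WAS over control by the labels (horizontal axis) for each release regulator, with points and bars for the fit on all 6 libraries ± its standard error, grey bands for the range when any 1 library was dropped, and dotted lines at a fold change of 1.5. Unc13c and Doc2b, at 0.53 and 0.65, lie apart from the other 7 genes, which run from -0.30 to 0.12, and no grey band crosses 0.

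Across the 6 libraries the genes fell into patterns that are given here as description only, since all points share library depth and regional makeup. Each correlation takes both groups together, so the group difference that was known when the genes were chosen enters it. Doc2b and Unc13c had a Pearson correlation of 0.90 on log2 CPM (1 added). Among the libraries labelled WAS, replicate 1 was the highest for Doc2b and the lowest for Unc13c. Among the control libraries, replicate 2 was the lowest for both. Doc2b and Unc13c ran against Rph3a, with correlations of -0.80 for Doc2b and -0.88 for Unc13c over the same 6 libraries. Unc13a ran with Cplx3 (0.87), Cplx2 (0.80) and Rph3a (0.71). Cplx1 and Cplx2, which encode close relatives, had a correlation of -0.14. Among 11167 other genes with a mean count of at least 50, those closest to Doc2b in pattern were Etfb (0.999), Sema6d (0.988) and Sco1 (0.985), each over 6 libraries. Counts of Etfb were 544, 485 and 532 against 473, 404 and 454, so that its range was narrower than that of Doc2b. The closest to Unc13c was Timm9 (0.994), to Doc2a Tamm41 (0.997), to Unc13a Celf5 (0.994) and to Unc13b Tbrg1 (0.98). For Rph3a it was Asap1 (0.993), and for the complexins Map2k5 (Cplx1, 0.994), Cxcl12 (Cplx2, 0.99) and Gria2 (Cplx3, 0.994). With 6 libraries and 11167 candidates, high correlations of this kind arise readily.

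**Figure D3:**
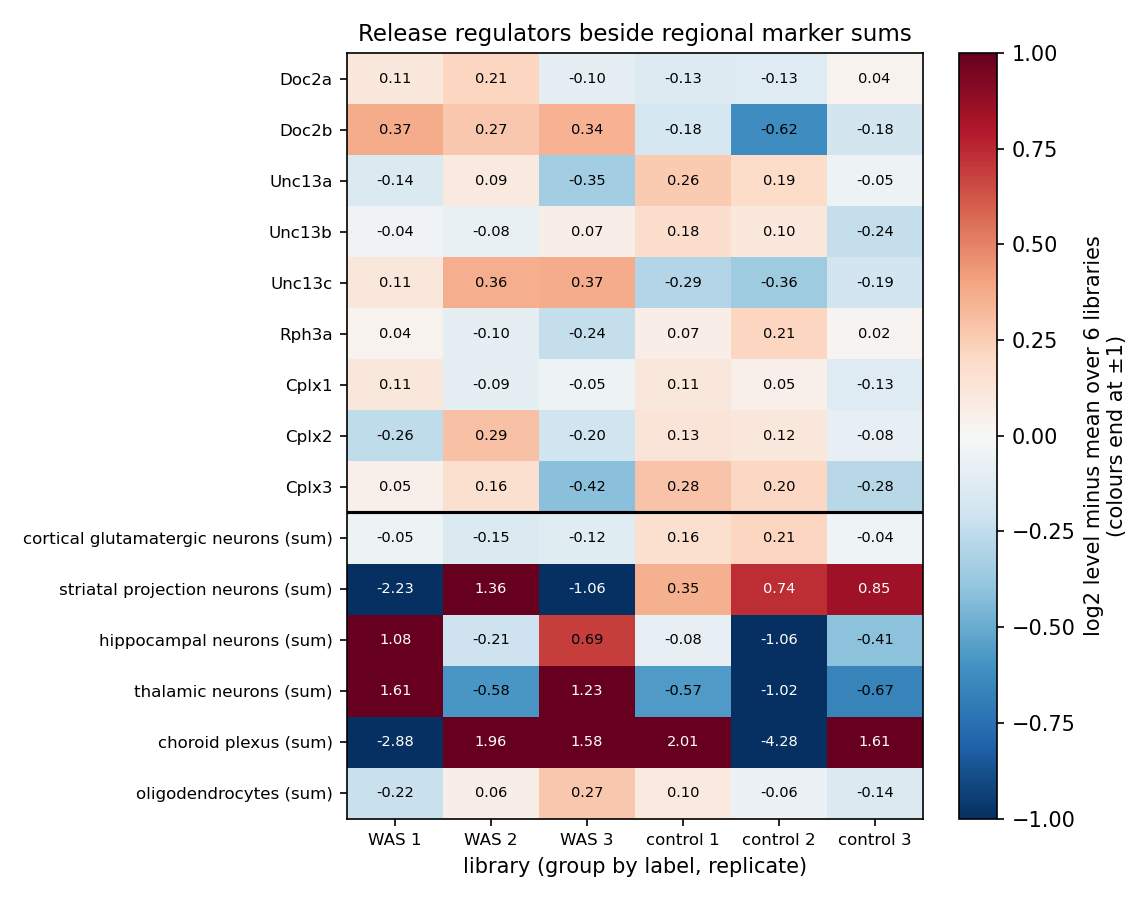
Log2 level of each release regulator (upper rows) and of the summed markers of 6 cell types or regions (lower rows) in each library, minus its mean over the 6 libraries, with numbers in the cells and colours that end at ±1. Doc2b and Unc13c are above 0 in all 3 libraries labelled WAS, and the striatal sums are -2.23 and -1.06 in WAS replicates 1 and 3 and 1.36 in WAS replicate 2.

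The other release genes give the setting, in 5 lists of 53 genes by function of which 49 were tested in the same fit. Over these lists 19 log2 ratios were above 0 and 30 below, with a median of -0.07. After Benjamini-Hochberg adjustment of the edgeR test over all genes, 0 of the 49 passed an adjusted p of 0.05, and at an unadjusted p under 0.05 there were 4 higher and 5 lower, against 7.24% of all genes. The fold change of 1.5 was met as well by 3 higher genes and 1 lower gene, beside 2.49% of all genes tested (277 higher and 103 lower).
Active zone scaffolds, the proteins that recruit Munc13 and calcium channels to the release site, were below 0 in 10 of 12 genes tested, with a median log2 ratio of -0.11. Pclo, the gene of the giant scaffold piccolo, had a log2 ratio of -0.11 ± 0.08 (SE) and Erc2 one of -0.10 ± 0.08 (SE), and neither passed the unadjusted threshold. Rims1, named after its values were seen, encodes the scaffold RIM that binds Munc13, and had 418, 388 and 376 counts against 455, 591 and 552. The Rims1 groups did not overlap, and its log2 ratio was -0.40 ± 0.12 (SE, edgeR adjusted p = 0.539). The summed markers of cortical glutamatergic neurons were lower in each library labelled WAS, as given with Rph3a, and their part in the values of the scaffolds and of the SNARE proteins and synaptotagmins was not tested. Rims3 was listed at 0 in all libraries and Rims4 at 0 or 1 count.
Priming and SNARE cycle factors had a median of -0.08, with 9 of 11 genes below 0 and none past an unadjusted p of 0.05. Napb, a SNARE disassembly factor, had a log2 ratio of 0.02 ± 0.08 (SE).

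Among 8 SNARE proteins and synaptotagmins of fast release, 6 were below 0 and the median was -0.22. Syt1, the calcium sensor of synchronous release, was at 2350, 2413 and 2268 CPM in the libraries labelled WAS and at 2583, 2813 and 2686 CPM in those labelled control. The groups did not overlap, and the log2 ratio was -0.24 ± 0.07 (SE, edgeR adjusted p = 0.539). Snap25, a SNARE of the plasma membrane, had a log2 ratio of -0.26 ± 0.13 (SE, edgeR adjusted p = 0.698). Stx1a, named after its values were seen, encodes the syntaxin that Munc13 opens and complexins bind. Stx1a counts were 1575, 1752 and 1380 against 2491, 2424 and 2143, a difference larger than the spread within either group, with a log2 ratio of -0.54 ± 0.11 (SE). Its edgeR adjusted p was 0.477 without a block and 0.043 with the replicate number as a block. Over all alternatives it had its lowest value, 0.000875, when WAS replicate 2 was dropped and its highest, 0.9998, when control replicate 2 was dropped.
Vamp1 and Syt2, the vesicle SNARE and calcium sensor of many brainstem and fast-spiking neurons, met the fold change of 1.5 with an unadjusted p under 0.05. Vamp1 was at 291.9, 118.4 and 261.3 CPM against 138.6, 135.9 and 117.9 CPM, a log2 ratio of 0.74 ± 0.25 (SE, edgeR adjusted p = 0.585). Syt2 was at 47.6, 21.1 and 34.9 CPM against 20.3, 19.9 and 20.7 CPM, a log2 ratio of 0.73 ± 0.23 (SE, edgeR adjusted p = 0.55). Both were high in WAS replicates 1 and 3, the libraries with high thalamic sums, and with WAS replicate 2 alone the log2 ratios were -0.18 for Vamp1 and 0.02 for Syt2. Vamp1 no longer met the criteria without WAS replicate 1 or WAS replicate 3, with DESeq2 or with limma, and Syt2 without WAS replicate 1 or with limma. Without WAS replicate 2 both passed the adjusted threshold, with edgeR adjusted p-values of 3.25e-05 (Vamp1) and 0.00191 (Syt2). The part of regional makeup in Vamp1 and Syt2 was not tested.

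Of the Rab3 and Rab27 GTPases with their regulators and effectors, the family to which rabphilin binds, 15 of 16 were tested and 11 were above 0, with a median log2 ratio of 0.09. Rab3a, the main vesicle GTPase bound by rabphilin, had a log2 ratio of 0.03 ± 0.08 (SE). Rab3c was at 764.6, 506.6 and 631.5 CPM against 426.2, 532.3 and 517.6 CPM, overlapping between the groups, with a log2 ratio of 0.33 ± 0.14 (SE, edgeR adjusted p = 0.67). Rab27a met the fold criterion with 53, 56 and 68 counts against 35, 32 and 50, a log2 ratio of 0.63 ± 0.27 (SE, edgeR adjusted p = 0.679). It no longer met the criteria without WAS replicate 2, WAS replicate 3, control replicate 1 or control replicate 2, with DESeq2 or with WAS replicate 2 alone.
Of 4 further relatives of the 9 genes, 3 were tested, with a median of 0.21 that was -0.00087 without control replicate 2. Baiap3, related to Munc13, had a log2 ratio of 0.27 ± 0.15 (SE) and Doc2g, of the Doc2 family, one of 0.21 ± 0.35 (SE). Unc13d, the isoform of blood cell granules, met the criteria on 3, 2 and 1 counts against 5, 10 and 10, too few for a fold to be given, and no longer met them without WAS replicate 3 or with WAS replicate 2 alone. It was not tested under the filterByExpr filter of edgeR, which removed it. Cplx4 was listed at 0 in all libraries.

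**Figure D4:**
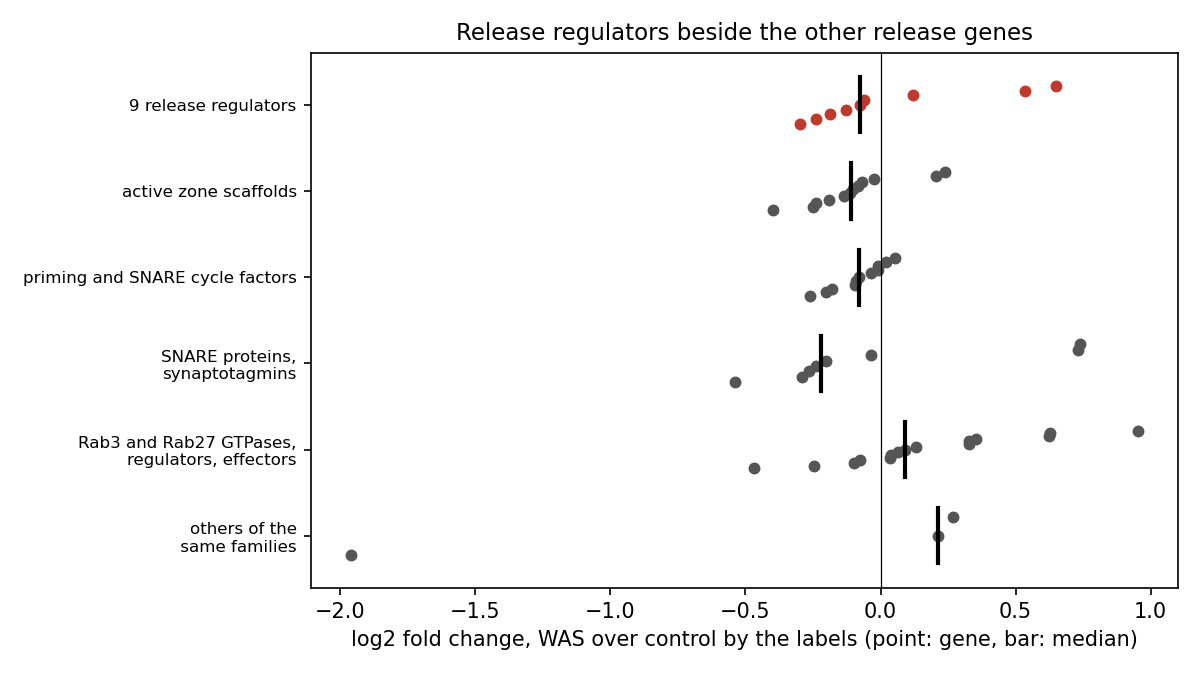
Log2 ratio of WAS over control by the labels (horizontal axis) for the 9 release regulators (red) and for the genes tested in each of 5 lists of other release genes (grey), 1 point per gene with a black bar at the median. Doc2b and Unc13c stand at the upper end of their row, as Vamp1 and Syt2 do among the SNARE proteins and synaptotagmins, and the point near -2 is Unc13d with 1 to 10 counts per library.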

How the data were processed

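RNA of a forebrain hemisphere was sequenced by QuantSeq 3′ mRNA-Seq (single-end reads) in 3 libraries per group. The deposited values are read counts per gene symbol, which the authors made with Bowtie2 and by counting unique and multiple alignments with Bedtools, on mm10 per the submitters' processing notes. The authors' quantile normalization is not in them. Extraction or sequencing batches are not given in the sources used here, and p-values measure the spread between these libraries.

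Levels are CPM, counts scaled to a common library total. Fold changes and p-values came from edgeR 4.0.16 (R 4.3.3) with TMM scaling (factors 0.976 to 1.01) and its quasi-likelihood test, fitted to the 15239 genes with a mean log2(quantile-normalized count + 1) of at least 2. All 9 genes passed this filter. Standard errors (SE) are the size of the fitted log2 ratio over √F. Adjusted p-values (Benjamini-Hochberg) cover all genes tested. The fit was tested on simulated data with known fold changes. Genes named beyond the 9 are the 2 most abundant of each list and those past a fold change of 1.5 with an unadjusted p under 0.05, plus the gene closest in pattern to each of the 9 (the 3 closest for Doc2b), and any exception is marked. A gene that this rule names is not reported here. The 9 genes and all lists were chosen with earlier results of these data known. Tspoap1 was matched under its older symbol Bzrap1.

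Same-numbered libraries of the groups deviated together (correlations of 0.112, 0.184 and 0.14 over 11168 genes, the other pairings being below 0), so the replicate number was treated as a pairing found in the data. Each group was centred on its own mean for these correlations. Positive same-numbered values therefore push the other pairings below 0, and the sign of those is no separate evidence. Alternatives were library totals, DESeq2 1.42.0, quantile-normalized log2 counts with limma 3.58.1, 2 other filters, the replicate block and each library left out. WAS replicate 2 alone was added after seeing the data. Each pair of replicates within a group differed by more than counting noise.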

Additional observations from a re-analysis of the deposited data

How the results depend on the processing

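The sign of the log2 fold change of each of the 9 genes was the same under library totals, DESeq2, limma, both other filters, the replicate block and each library left out. With each library left out in turn, Doc2b ran from 0.51 to 0.73, Unc13c from 0.49 to 0.61, Unc13a from -0.42 to -0.20 and Rph3a from -0.31 to -0.17. The number of the 9 genes past the fold change of 1.5 ran from 0 to 2 in these fits, being 0 without control replicate 2, where Doc2b fell under it, and 2 without WAS replicate 1 or control replicate 3, where Unc13c joined it. Of the other release genes, 1 to 6 met the criteria with a library left out (1 without WAS replicate 3), 2 with DESeq2 and 2 with limma, in place of 4. The median of the Rab3 and Rab27 list ran from 0.039 without WAS replicate 1 to 0.14 without WAS replicate 3, and that of the SNARE list was -0.10 with limma on quantile-normalized counts. Over all genes, 261 to 831 in place of 380 met the criteria with a library left out, and 0 to 484 in place of 0 passed an adjusted p of 0.05, both highest without WAS replicate 2, where Unc13a, Unc13c, Stx1a, Vamp1, Syt2 and Rab3c passed the latter. The adjusted threshold was passed by 22 genes with DESeq2 and 49 with the replicate block. Unc13c and Stx1a were among these in both, and the block changed no other call on the genes named by that threshold. With WAS replicate 2 alone, a choice made after seeing the data, Unc13c in place of Doc2b met the fold change of 1.5. The log2 fold changes in that fit were 0.25 for Doc2a, -0.0837 for Unc13a, 0.19 for Cplx2, 0.033 for Cplx3 and -0.18 for Vamp1. The signs of the last 3 had turned. Scaling by library totals moved the median of all genes to 0.038. The causes of these changes were not tested beyond the libraries named. With 3 libraries per group, differences of the size of those of Cplx1 and Unc13b were within their standard errors.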
